A study of Mus musculus with 6 samples.

Results

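The genes described here are 9 members of the epidermal growth factor (EGF) system among the 30743 features of a table of RNA sequencing values from Tri-PyMT cells, a mouse breast tumour line. They were taken by symbol and comprise the ligands Areg, Ereg, Hbegf, Tgfa and Btc, the receptors Egfr, Erbb2 and Erbb3, and the feedback inhibitor Errfi1. The 6 samples formed 3 groups of 2, namely GFP+ cells (EMT per the labels) exposed to 4-hydroperoxy-cyclophosphamide (CTX) at 4 µM for 7 days, untreated GFP+ cells, and untreated RFP+ cells (non-EMT). CTX is an active form of the DNA-alkylating drug cyclophosphamide, and EMT is the epithelial-mesenchymal transition, in which epithelial cells gain mesenchymal features. All groups grew in medium with serum and were sorted by colour before RNA extraction. As background, the line comes from mice in which polyoma middle T drives mammary tumours, and a Cre under the S100a4 (Fsp1) promoter switches the cells from red to green for good, so the colour records past promoter activity and not the present state. CTX-treated RFP+ cells were not analysed here. The labels give a culture time for CTX-treated cells alone, so drug and time in culture cannot be told apart. Whether replicates came from separate cultures is not stated, so p-values reflect the spread among the deposited samples alone, and that spread may be technical.

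EGF-type ligands are made as membrane-anchored precursors and are released by proteases, among them ADAM17. Areg and Tgfa bind EGFR, whereas Hbegf, Btc and Ereg bind EGFR and ERBB4. ERBB2 has no ligand of its own and acts as a partner, and ERBB3, which binds neuregulins and has little kinase activity, signals through such partners. In the mammary gland amphiregulin (Areg) is the EGFR ligand through which oestrogen drives duct growth, and ERBB2 and ERBB3 are well known from breast cancer.

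Expression was given in FPKM, fragments scaled to transcript length and library size, which allows levels of different genes to be compared. The filter kept the 13080 genes that reached 1 FPKM in 2 or more samples, and 8 of the 9 members passed. Untreated GFP+ replicate 1 had lower values than the other samples for most genes, with a log2 size factor by median ratio of -0.43 where the others had 0.027 to 0.15, and the smallest library, at 0.794 times the mapped fragments of RFP+ replicate 1 where the other 4 had 1.004 to 1.10 times. Both CTX samples lay close to counting noise. In fragment counts recovered for 1350 genes their chi-square per degree of freedom was 1.481, against 9.59 in untreated GFP+ (1551 genes) and 11.5 in RFP+ cells (1368 genes). The labels list the CTX samples as 2, and their counts differed by more than counting noise alone (chi-square test, p = 3.91e-28), which separate libraries of a single RNA could also show. Whether they are separate cultures is not known. They were used as 2 samples, and for named genes the values with their mean as 1 sample are given where that changes a call. Of 4 epithelial markers (Cdh1, Epcam, Krt8 and Krt18) all were present, with summed levels of 276 and 263 FPKM in CTX-treated GFP+, 131 and 268 in untreated GFP+, and 599 and 836 in RFP+ samples. None of 6 leukocyte and none of 4 endothelial markers reached 1 FPKM in any sample. Cd3e and Emr1 were listed at 0 throughout. In bulk samples, fewer cells of a type and less RNA per cell cannot be told apart.

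**Figure D1:**
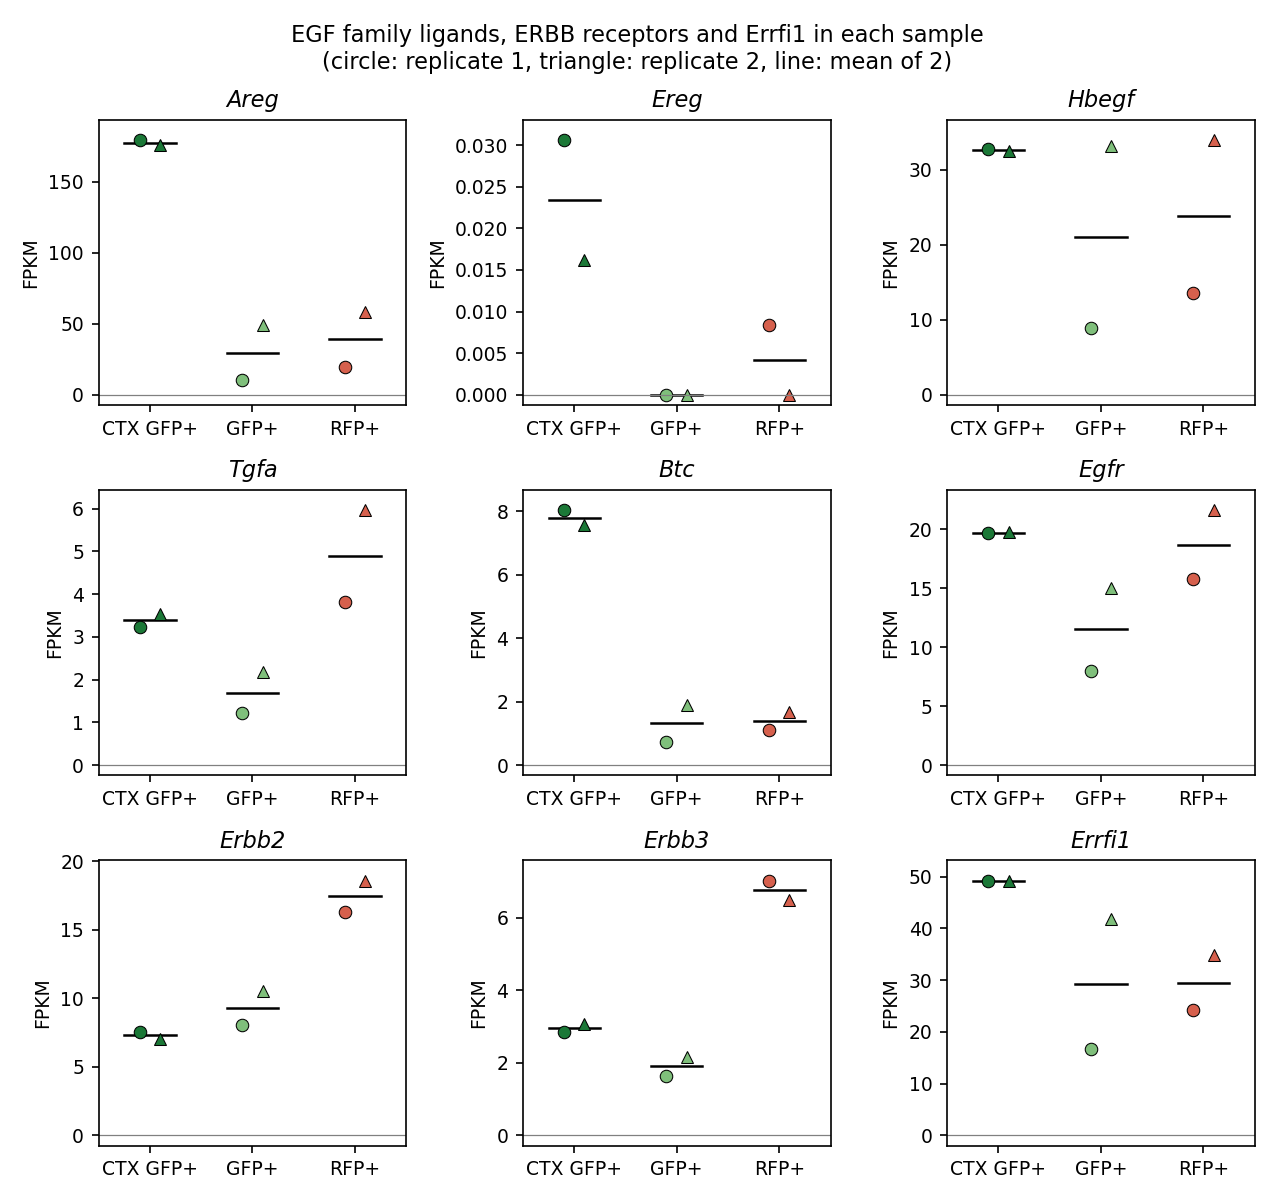
FPKM of each member (vertical axes, linear) in CTX-treated GFP+, untreated GFP+ and untreated RFP+ samples. Circles are replicate 1, triangles replicate 2 and lines the mean of 2. Areg and Btc stand highest in the CTX samples, Erbb2 and Erbb3 in the RFP+ samples.

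Of the 4 tested ligands, Areg and Btc passed in CTX-treated against untreated GFP+ cells, and Hbegf and Tgfa did not. Areg was at 179.5 and 176 FPKM in CTX-treated GFP+ samples, at 10.6 and 49.0 FPKM in untreated GFP+ samples and at 19.9 and 58.3 FPKM in RFP+ samples. Both CTX samples thus lay above all 4 untreated samples, and the untreated colours overlapped. For 64.3% of all genes tested the CTX samples did not overlap the untreated GFP+ samples. Btc, betacellulin, was at 8.03 and 7.57 FPKM in CTX-treated GFP+ samples, at 0.733 and 1.91 FPKM in untreated GFP+ samples and at 1.11 and 1.68 FPKM in RFP+ samples. Its pattern over the groups was the same as that of Areg at a far lower level. Within a sample the Areg to Btc ratio of levels was 22.3 and 23.2 with CTX, 14.4 and 25.7 in untreated GFP+ and 17.8 and 34.8 in RFP+ samples.

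In CTX-treated against untreated GFP+ cells, Btc rose by 1.97 on the log2(FPKM + 1) scale (SE 0.27, 95% interval 1.32 to 2.62, limma adjusted p = 0.00704). That scale understates the change of low genes. Areg rose by 2.89 (SE 0.72, 95% interval 1.17 to 4.61, limma adjusted p = 0.0463). Over all genes tested 12.8% passed in this comparison, 12.3% higher and 0.474% lower, with a median of 0.25. Of the 8 tested members 2 rose, 0 fell and 6 did not pass, with a median of 0.83. After median-ratio scaling the split of calls over all genes was 1437 higher and 1052 lower, against 1607 and 62 as deposited, and the all-gene median was -0.05. Btc passed under this scaling (1.75, adjusted p = 0.0119) and under every other alternative run, with values between 1.60 and 2.61. Areg did not pass after scaling (2.55, adjusted p = 0.0677). Without untreated GFP+ replicate 1 it was at 1.84 (adjusted p = 0.143), and without RFP+ replicate 1 or 2, which leaves fewer samples for the spread, its adjusted p was 0.101 and 0.0991. Nor did it pass with either other pseudocount, no filter, a stricter filter, quantile normalization, only the 4 samples compared or robust moderation, which gave its highest adjusted p of 0.174. With the CTX pair averaged, Areg passed (adjusted p = 0.00784).

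Against untreated RFP+ cells the CTX-treated GFP+ cells gave similar values for these ligands, and both comparisons share the CTX samples. Btc rose by 1.89 (SE 0.27, limma adjusted p = 0.00685), where 17.0% of all genes passed. Without RFP+ replicate 1 or 2 its adjusted p was 0.0975 and 0.0562. Areg stood 2.34 higher (SE 0.72, limma adjusted p = 0.0696) and did not pass, although no CTX sample overlapped an RFP+ sample, as held for 77.2% of all genes. With the CTX pair averaged it passed (adjusted p = 0.0262). Between untreated GFP+ and RFP+ cells neither ligand passed, at -0.55 for Areg (95% interval -2.27 to 1.17) and -0.08 for Btc (95% interval -0.73 to 0.56). These intervals include differences of more than 1 log2 unit for Areg.

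Hbegf, heparin-binding EGF-like growth factor, was the second most abundant of the 5 member ligands. It was at 32.8 and 32.5 FPKM in CTX-treated GFP+ samples, at 8.94 and 33.2 FPKM in untreated GFP+ samples and at 13.6 and 34.0 FPKM in RFP+ samples. In each untreated colour replicate 2 was near the CTX level and replicate 1 well below it. The log2 change was 0.87 (95% interval -0.60 to 2.33, limma adjusted p = 0.388) in CTX-treated minus untreated GFP+ cells and -0.03 without untreated GFP+ replicate 1. Tgfa, transforming growth factor alpha, was at 3.24 and 3.54 FPKM in CTX-treated GFP+ samples, at 1.23 and 2.17 FPKM in untreated GFP+ samples and at 3.82 and 5.96 FPKM in RFP+ samples. Among the 5 ligands it was the one with higher values in both RFP+ samples than in any GFP+ sample. For 46.5% of all genes tested the RFP+ samples did not overlap the untreated GFP+ samples, and for 77.2% the CTX samples. In untreated GFP+ minus RFP+ cells it stood at -1.12 (SE 0.26, 95% interval -1.73 to -0.52, limma adjusted p = 0.0997), and it passed in a model of the 4 untreated samples alone (adjusted p = 0.0489). Without untreated GFP+ replicate 2, which keeps only the lower sample of that group, Tgfa was at -1.38, beside an all-gene median of -0.42. After median-ratio scaling Tgfa was at -0.95 in this comparison and did not pass (limma adjusted p = 0.1002).

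Ereg, epiregulin, was at the limit of detection. Its values were whole multiples of 1 fragment, the fewest that match being 4 and 2 fragments in CTX-treated GFP+ samples, 0 and 0 in untreated GFP+ samples, and 1 and 0 in RFP+ samples. A count of 0 allows up to 0.0318 and 0.0244 FPKM (3 fragments) in the untreated GFP+ samples and 0.0251 FPKM in RFP+ replicate 2, for counting error only. With counts this low no fold change is given, and Ereg did not pass the filter.

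The summed level of the 5 ligands was 224 and 219.5 FPKM in CTX-treated GFP+ samples, 21.5 and 86.3 FPKM in untreated GFP+ samples and 38.4 and 99.97 FPKM in RFP+ samples. Areg made up 80.3% and 80.1% of that sum with CTX, against 49.3% and 56.7% in untreated GFP+ and 51.7% and 58.3% in RFP+ samples. Hbegf held 14.7% and 14.8% with CTX, 41.6% and 38.5% in untreated GFP+ and 35.5% and 34.0% in RFP+ samples. These shares do not depend on the scaling of a sample. The ratio of Areg to Hbegf was 5.48 and 5.40 with CTX, 1.18 and 1.47 in untreated GFP+ and 1.46 and 1.72 in RFP+ samples, and the CTX samples did not overlap the others. With 2 samples against 2, an exact permutation test cannot give a two-sided p below 0.333, so these ratios stand as a description.

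**Figure D2:**
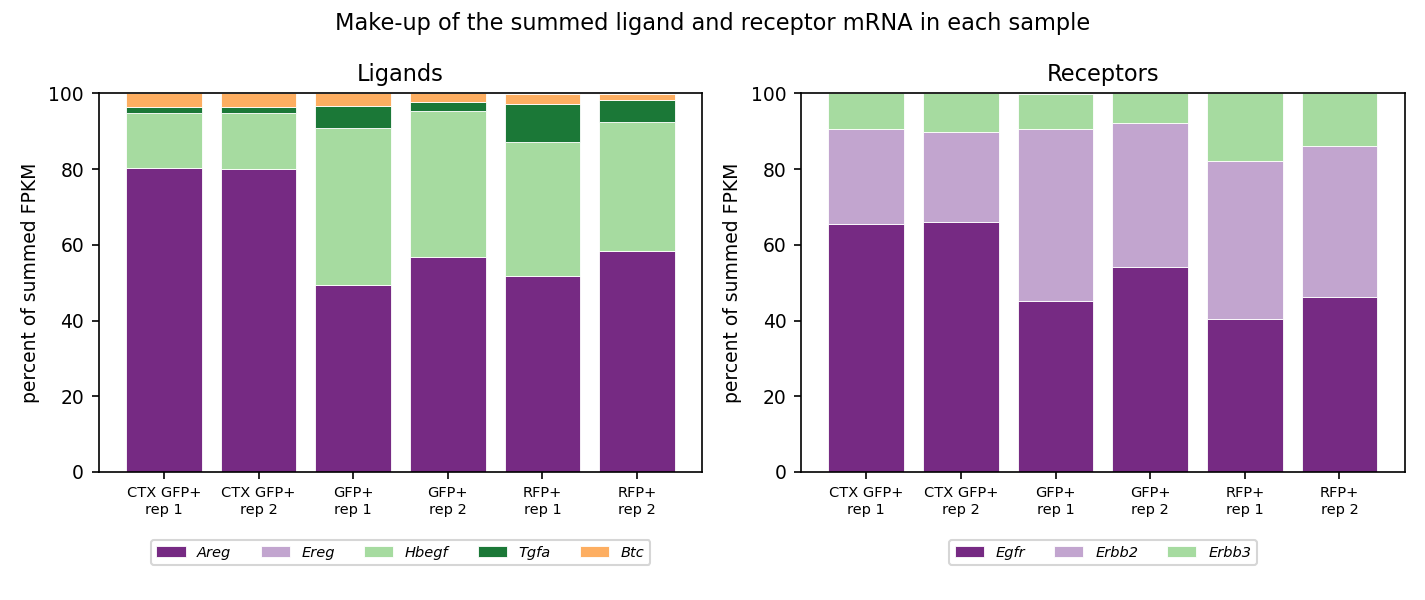
Percent of the summed FPKM of the 5 ligands (left) and of the 3 receptors (right) in each sample, as stacked bars from 0 to 100. Areg makes up 80.3% and 80.1% of the ligand sum in the CTX samples, and Egfr makes up 65.5% and 66.1% of the receptor sum there.

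The receptors followed another order, with Erbb2 and Erbb3 highest in RFP+ cells. Erbb3 was at 2.85 and 3.09 FPKM in CTX-treated GFP+ samples, at 1.65 and 2.17 FPKM in untreated GFP+ samples and at 7.02 and 6.48 FPKM in RFP+ samples. No 2 groups overlapped, and untreated GFP+ and RFP+ samples did not for 46.5% of all genes. The counts behind these values were 361 and 369 fragments with CTX, 151 and 259 in untreated GFP+ and 811 and 751 in RFP+ samples. The exact Poisson 95% intervals, for counting error only, were 1.39 to 1.93 and 1.91 to 2.45 FPKM in untreated GFP+ and 6.55 to 7.52 and 6.02 to 6.96 FPKM in RFP+ samples. In untreated GFP+ cells Erbb3 fell by 1.42 relative to RFP+ cells (SE 0.18, 95% interval -1.84 to -0.997, limma adjusted p = 0.0183), the one call among 8 tested members. Over all genes 1.90% passed, 0.115% higher and 1.78% lower, with a median of -0.24. After scaling, calls over all genes were 133 higher and 257 lower, against 15 and 233 as deposited, and Erbb3 stood at -1.23 (adjusted p = 0.0132). Without RFP+ replicate 1 or 2, where limma called 0 genes in all (1317 and 2554 at an unadjusted p under 0.05), its adjusted p was 0.222 and 0.206, at -1.37 and -1.47. With no filter it was 0.0987.

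Erbb2 was at 7.52 and 7.08 FPKM in CTX-treated GFP+ samples, at 8.09 and 10.5 FPKM in untreated GFP+ samples and at 16.3 and 18.6 FPKM in RFP+ samples. Every GFP+ sample, treated or not, lay below both RFP+ samples. RFP+ samples did not overlap untreated GFP+ samples for 46.5% of all genes tested, and CTX samples for 77.2%. In CTX-treated GFP+ minus RFP+ cells Erbb2 fell by 1.15 (SE 0.19, limma adjusted p = 0.0119) and Erbb3 fell by 0.97 (SE 0.18, limma adjusted p = 0.0152). With Btc these were the 3 calls in this comparison, where 11.0% of all genes passed as higher and 5.99% as lower. After scaling the split over all genes was 1959 higher and 2122 lower, against 1437 and 784. Both receptors passed after scaling (-1.22 and -1.02) and neither did with the CTX pair averaged (adjusted p = 0.0842 and 0.169). The same held without CTX replicate 1 (0.0639 and 0.183) or 2 (0.0937 and 0.137), and without RFP+ replicate 1 (0.0823 and 0.106) or 2 (0.0739 and 0.0706). In untreated GFP+ minus RFP+ cells Erbb2 stood at -0.85 (95% interval -1.31 to -0.38, limma adjusted p = 0.101). Without untreated GFP+ replicate 2 it was at -1.02, beside an all-gene median of -0.42. After median-ratio scaling Erbb2 was at -0.60 in this comparison and did not pass (limma adjusted p = 0.0641). In CTX-treated minus untreated GFP+ cells it was at -0.30 as deposited (adjusted p = 0.339) and passed as lower after median-ratio scaling (-0.62, adjusted p = 0.0238).

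Egfr, the receptor for all 5 ligands, was at 19.7 and 19.8 FPKM in CTX-treated GFP+ samples, at 8.01 and 15.0 FPKM in untreated GFP+ samples and at 15.8 and 21.6 FPKM in RFP+ samples. The CTX values lay within the range of the RFP+ samples. Egfr passed in none of the 3 comparisons, with log2 changes of 0.79 (SE 0.30, limma adjusted p = 0.136) against untreated GFP+, 0.09 (95% interval -0.62 to 0.80, limma adjusted p = 0.861) against RFP+, and -0.70 (95% interval -1.41 to 0.02, limma adjusted p = 0.286) between the untreated colours. Without untreated GFP+ replicate 2, which keeps only the lower sample of that group, the first was 1.202 and the last -1.11. The all-gene medians there were 0.43 and -0.42. After median-ratio scaling these Egfr changes were 0.46 and -0.45 and did not pass (limma adjusted p = 0.177 and 0.398). Within a sample, the ratio of Egfr to Erbb2 was 2.62 and 2.796 with CTX, 0.990 and 1.43 in untreated GFP+ and 0.968 and 1.16 in RFP+ samples. The ratio of Egfr to Erbb3 was 6.92 and 6.41 with CTX, 4.86 and 6.93 in untreated GFP+ and 2.25 and 3.34 in RFP+ samples. Egfr thus made up 65.5% and 66.1% of the summed receptor level with CTX, against 45.1% and 54.2% in untreated GFP+ and 40.4% and 46.3% in RFP+ samples. ERBB4 messages were at most 2 fragments in any sample.

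The summed epithelial markers, given above, were higher in both RFP+ samples than in any GFP+ sample, as Erbb2 and Erbb3 were, but overlapped between CTX-treated and untreated GFP+ samples. Of the 4 markers 2 fell in untreated GFP+ relative to RFP+ cells, Cdh1 (-2.28, limma adjusted p = 0.0161) and Epcam (-2.03, limma adjusted p = 0.0262). Of 5 mesenchymal markers none passed in that comparison and 2 rose in CTX-treated GFP+ relative to RFP+ cells. Of 5 fibroblast markers 4 reached 1 FPKM, with summed levels of 107 and 109.8 FPKM in CTX-treated GFP+, 61.1 and 91.3 in untreated GFP+ and 25.1 and 27.3 in RFP+ samples. Dcn alone was at 84.0 and 87.25 FPKM in CTX-treated GFP+ samples. Pdgfrb (-1.09, limma adjusted p = 0.0114) and Col1a1 (-0.71, limma adjusted p = 0.0325) fell with CTX against untreated GFP+ cells, where 0.474% of all genes fell. Of the 4, 2 rose with CTX against RFP+ cells, where 11.0% of all genes rose. In untreated GFP+ relative to RFP+ cells 1 rose, where 0.115% of all genes rose. The part of either cell state in the receptor values was not tested.

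**Figure D3:**
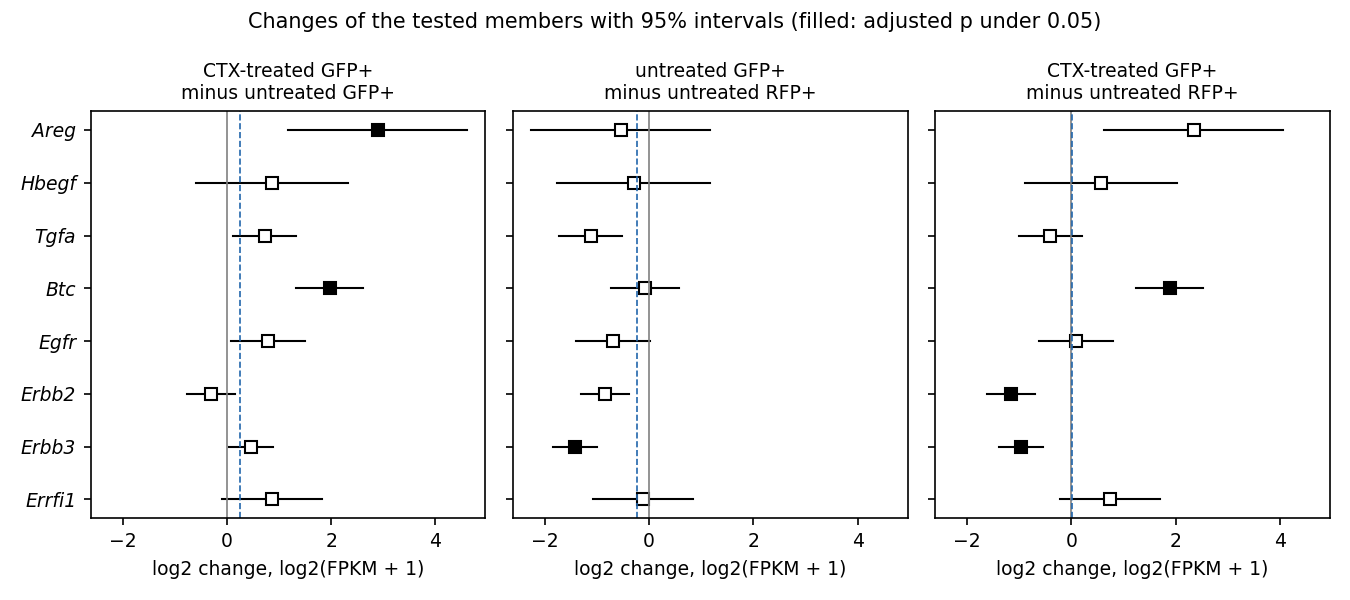
Log2 changes on the log2(FPKM + 1) scale (horizontal axes) of the 8 tested members in the 3 comparisons, with 95% intervals from limma. Filled squares passed at an adjusted p under 0.05 and the dashed line is the median of all genes tested. Btc is filled in both comparisons with CTX-treated cells, and Erbb3 in both comparisons with RFP+ cells.

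Errfi1 encodes MIG6, which binds the kinase domain of EGFR and ERBB2 and blocks it, and is itself induced by growth factor signalling. It was at 49.2 and 49.2 FPKM in CTX-treated GFP+ samples, at 16.7 and 41.9 FPKM in untreated GFP+ samples and at 24.2 and 34.8 FPKM in RFP+ samples. The CTX samples lay above all untreated samples and the untreated colours overlapped. Over all genes tested, the CTX samples did not overlap untreated GFP+ samples for 64.3% and RFP+ samples for 77.2%. No comparison passed as deposited, with log2 changes of 0.87 (95% interval -0.09 to 1.83, limma adjusted p = 0.206) against untreated GFP+ and 0.74 (95% interval -0.22 to 1.70, limma adjusted p = 0.246) against RFP+ cells. Without untreated GFP+ replicate 2 these were 1.502 and 0.74, beside all-gene medians of 0.43 and 0.012. After median-ratio scaling the Errfi1 changes were 0.52 and 0.65 and did not pass (limma adjusted p = 0.293 and 0.174).

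Several members also differed between the untreated samples of one colour. The ratio of replicate 2 to replicate 1 was 4.63 in untreated GFP+ and 2.94 in RFP+ samples for Areg, 3.72 and 2.49 for Hbegf, 2.503 and 1.44 for Errfi1, and 2.60 and 1.51 for Btc, in the same order. Erbb2 and Erbb3 had ratios of 1.30 and 1.32 in untreated GFP+ and 1.14 and 0.922 in RFP+ samples. In the CTX samples the ratios of the 8 tested members ran from 0.940 to 1.09. For Tgfa and Egfr the ratios were 1.76 and 1.88 in untreated GFP+ and 1.56 and 1.37 in RFP+ samples. Areg, Hbegf and Errfi1 thus carried wide intervals in each comparison with untreated cells (SE 0.72, 0.61 and 0.40). Those of Erbb2 and Erbb3 were narrower (SE 0.19 and 0.18), and those of Btc, Tgfa and Egfr lay between (SE 0.27, 0.26 and 0.30).

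Areg, Ereg, Btc and the related ligand Epgn are neighbours on chromosome 5, in the order Epgn, Ereg, Areg, Btc of the RefSeq gene table with no other protein-coding gene between them. Among these neighbours, Areg and Btc passed as deposited in CTX-treated minus untreated GFP+ cells, where 12.3% of all genes tested rose. Areg did not pass after median-ratio scaling or under several other alternatives. Ereg was at the limit of detection, and Epgn reached 1 FPKM, the level set by the filter, in the CTX samples alone. Promoters of 6 of the 9 members (Areg, Tgfa, Btc, Egfr, Erbb2 and Errfi1) were in the RefSeq promoter table. Printed are those of Areg and Btc, the ligands that passed with CTX, and of Errfi1, which passed in no comparison as deposited. They run 5′ to 3′ on the strand of the gene, from 250 bases before the annotated start to 50 bases after it. The build is GRCm38.p6, whereas the FPKM were made on mm9. Capitals mark 3 motifs. They are the cyclic AMP response element (CRE) TGACGTCA, the core promoter element TATAAA of the TATA-box type, and the E-box bound by ZEB and SNAIL factors, CACCTG, which reads as its reverse complement on the other strand.
Areg, chr5:91139349-91139648, plus strand: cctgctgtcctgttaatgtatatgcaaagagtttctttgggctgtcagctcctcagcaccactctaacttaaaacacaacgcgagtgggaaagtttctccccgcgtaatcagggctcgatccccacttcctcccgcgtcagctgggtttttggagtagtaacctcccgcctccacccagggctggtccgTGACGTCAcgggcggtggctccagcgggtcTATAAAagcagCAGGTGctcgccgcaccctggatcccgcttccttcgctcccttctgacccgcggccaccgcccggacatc
Errfi1, chr4:150854820-150855119, plus strand: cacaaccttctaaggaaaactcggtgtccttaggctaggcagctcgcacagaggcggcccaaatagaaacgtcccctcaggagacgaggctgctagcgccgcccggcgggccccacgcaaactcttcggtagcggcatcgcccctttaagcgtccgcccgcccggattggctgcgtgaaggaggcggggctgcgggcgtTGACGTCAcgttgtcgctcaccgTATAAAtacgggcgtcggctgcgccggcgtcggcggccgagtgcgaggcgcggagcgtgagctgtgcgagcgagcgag
Btc, chr5:91402945-91403244, minus strand: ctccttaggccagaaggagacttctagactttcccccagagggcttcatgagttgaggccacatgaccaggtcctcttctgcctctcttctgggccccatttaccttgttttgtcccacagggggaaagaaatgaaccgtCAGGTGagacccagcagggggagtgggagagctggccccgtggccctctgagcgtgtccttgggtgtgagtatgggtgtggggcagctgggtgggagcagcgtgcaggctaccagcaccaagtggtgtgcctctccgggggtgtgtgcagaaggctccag

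Counted in bases from the start, Areg held a CRE at -61 to -54 and a TATA box at -31 to -26. Errfi1 has a pair of annotated starts, and the window of the start not printed held none of the motifs searched. At the one printed Errfi1 held a CRE at -51 to -44 and a TATA box at -28 to -23. Neither motif was in the Btc window, where an E-box lay at -110 to -105. Areg also had an E-box at -20 to -15 and Tgfa one at -197 to -192. The windows of Egfr and Erbb2 held none of the motifs searched. The motifs were searched on both strands and their matches in these windows did not overlap. Of 32851 listed promoters 1.79% held TGACGTCA, 13.6% TATAAA and 20.2% CACCTG. The AP-1 motif TGANTCA, present in 7.81% of promoters, was in none of the member windows. The matches describe letters in these windows and not binding.

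The rest of the pathway was followed through 74 other genes, of which 67 were tested. In CTX-treated minus untreated GFP+ cells 8 rose, 0 fell and 59 did not pass, with a median of 0.34. Among the 8 is Epgn, which passed the filter only through the CTX samples. The share that passed, 8 of 67, was close to the 12.8% of all genes. After scaling 6 rose and 3 fell. The count was 0 in a model of the 4 GFP+ samples alone and without RFP+ replicate 1 or 2, 3 higher and 2 lower without untreated GFP+ replicate 1, and 35 higher without untreated GFP+ replicate 2, where 5690 of 12985 genes rose in all. With the CTX pair averaged 4 rose and 1 fell. In untreated GFP+ minus RFP+ cells 0 rose and 1 fell, and 24 fell without untreated GFP+ replicate 2, where 4640 genes fell in all. In CTX-treated GFP+ minus RFP+ cells 4 rose, Epgn again among them, and 2 fell as deposited, where 11.0% of all genes rose and 5.99% fell. With scaling 9 rose and 8 fell, where 31.2% of all genes passed. Averaging the CTX pair left 2 higher and 2 lower. Without RFP+ replicate 1 or 2 there were 0 calls in untreated GFP+ minus RFP+ cells, and 0 or 1 in CTX-treated GFP+ minus RFP+ cells.

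Of 6 other ligands, 4 were tested. Epgn, epigen, was at 1.22 and 1.72 FPKM in CTX-treated GFP+ samples, at 0.246 and 0.448 FPKM in untreated GFP+ samples and at 0.150 and 0.548 FPKM in RFP+ samples. It passed the filter only through the CTX samples, so its rise of 0.87 (limma adjusted p = 0.0378) comes from a gene that had to differ, and it was at 0.74 (adjusted p = 0.0512) after scaling. It was not tested with the CTX pair averaged. Nrg1, a neuregulin that binds ERBB3, was at 24.4 and 25.3 FPKM in CTX-treated GFP+ samples. In untreated GFP+ samples Nrg1 was at 10.6 and 18.4 FPKM and in RFP+ samples at 8.54 and 12.3 FPKM. It rose by 1.198 in CTX-treated GFP+ relative to RFP+ cells (SE 0.29, limma adjusted p = 0.0346) and did not pass against untreated GFP+ cells (0.78, adjusted p = 0.126). Its adjusted p against RFP+ cells was 0.0995 with the CTX pair averaged. Nrg2 was at 7.07 and 10.5, 2.09 and 4.49, and 3.28 and 5.82 FPKM in CTX-treated GFP+, untreated GFP+ and RFP+ samples and passed in no comparison, nor did Nrg4, at 1.41 to 2.33 FPKM over all samples. Egf itself stayed at or below 0.478 FPKM and Nrg3 at or below 0.0175 FPKM in every sample.

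Of 8 tested genes of ligand shedding 2 rose in CTX-treated relative to untreated GFP+ cells, where 12.3% of all genes tested rose. The metalloprotease Adam8 was at 26.9 and 25.5 FPKM in CTX-treated GFP+ samples, at 2.52 and 7.68 FPKM in untreated GFP+ samples and at 4.76 and 12.7 FPKM in RFP+ samples, and rose by 2.30 (SE 0.52, limma adjusted p = 0.0349; after scaling 2.004, adjusted p = 0.0516). Adam15 rose by 0.85 (SE 0.18, limma adjusted p = 0.0314). The main sheddases of EGF ligands, Adam17 and Adam10, were at 0.11 and 0.19 and did not pass (adjusted p = 0.759 and 0.472). Of 22 adaptors and kinases 2 rose, the tyrosine kinase Src (1.12, SE 0.24, limma adjusted p = 0.0301) and Map2k1, the kinase MEK1 upstream of ERK (0.80, SE 0.19, limma adjusted p = 0.0417). In CTX-treated GFP+ relative to RFP+ cells the small GTPase Nras fell by 0.69 (SE 0.18, limma adjusted p = 0.0448). With the CTX pair averaged Adam15, Src, Map2k1 and Nras did not pass (adjusted p = 0.271, 0.122, 0.329 and 0.379), and Adam8 did.

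Of 21 tested negative regulators 1 rose in CTX-treated relative to untreated GFP+ cells, where 12.3% of all genes tested rose. It was the ERK phosphatase Dusp4, at 11.5 and 10.5 FPKM in CTX-treated GFP+ samples. In untreated GFP+ samples Dusp4 was at 1.87 and 5.06 FPKM and in RFP+ samples at 4.92 and 6.47 FPKM. Its rise was 1.52 (SE 0.35, limma adjusted p = 0.0373). Its relatives in ERK feedback, Dusp6 and Spry2, were at 0.14 and 0.20 and did not pass (adjusted p = 0.879 and 0.841). Cblc, a ubiquitin ligase of the CBL family that acts on EGFR, was at 2.85 and 2.39 FPKM in CTX-treated GFP+ samples, at 1.15 and 1.60 FPKM in untreated GFP+ samples and at 7.98 and 8.79 FPKM in RFP+ samples. It fell by 1.99 in untreated GFP+ relative to RFP+ cells (SE 0.18, limma adjusted p = 0.0102) and by 1.38 in CTX-treated GFP+ relative to RFP+ cells (SE 0.18, limma adjusted p = 0.00531), and so had the order of groups seen for Erbb3.

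Of 12 tested genes known to follow ERK activity, 2 rose in CTX-treated relative to untreated GFP+ cells, where 12.3% of all genes tested rose. Fosl1, the AP-1 subunit FRA1, was at 29.0 and 28.7 FPKM in CTX-treated GFP+ samples, at 6.08 and 10.7 FPKM in untreated GFP+ samples and at 4.44 and 8.92 FPKM in RFP+ samples. It rose by 1.72 (SE 0.35, limma adjusted p = 0.0252) against untreated GFP+ cells and by 2.02 (SE 0.35, limma adjusted p = 0.0124) against RFP+ cells. Cyclin D1 (Ccnd1) was at 339 and 335 FPKM in CTX-treated GFP+ samples, at 88.3 and 148 FPKM in untreated GFP+ samples and at 125 and 192 FPKM in RFP+ samples, and rose by 1.55 against untreated GFP+ cells (SE 0.31, limma adjusted p = 0.0238). The early response gene Ier3 rose by 1.47 against RFP+ cells (SE 0.40, limma adjusted p = 0.04996). Fos and Egr1, early genes of the growth factor response, did not pass, at -2.12 and -0.84 against untreated GFP+ cells (adjusted p = 0.0796 and 0.622). With the CTX pair averaged Ier3 did not pass against RFP+ cells (adjusted p = 0.0680), and Fos passed as lower against untreated GFP+ and RFP+ cells (adjusted p = 0.0413 and 0.0468).

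**Figure D4:**
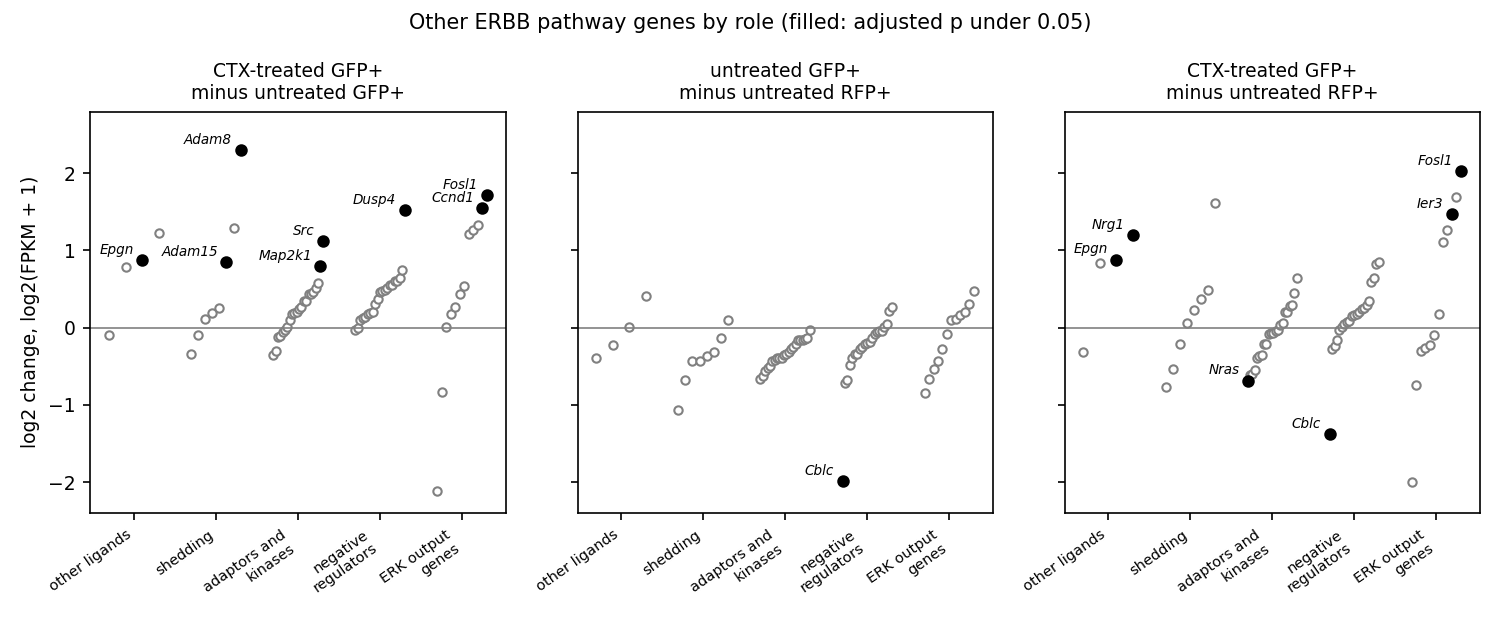
Log2 changes on the log2(FPKM + 1) scale (vertical axes) of the tested other pathway genes, grouped by role and ordered by size within a role, in the 3 comparisons. Filled, named points passed at an adjusted p under 0.05. Cblc is the one filled point between the untreated colours, at -1.99.

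Over the 6 samples, the protein-coding genes whose centred log2 profile lay nearest to that of each called member were found among 11656 by the root mean square (RMS) difference. For Areg these were Atf3, a stress-induced transcription factor (RMS 0.25), and Rnf213 (RMS 0.26). Atf3 was at 36.3 and 36.6 FPKM in CTX-treated GFP+ samples, at 2.42 and 13.0 FPKM in untreated GFP+ samples and at 5.02 and 10.5 FPKM in RFP+ samples. For Btc they were Zfp365 (RMS 0.05) and Mab21l3 (RMS 0.07). For Erbb3 they were the receptor phosphatase Ptprf (RMS 0.06) and Tom1l1 (RMS 0.08), and for Erbb2 the transferrin receptor Tfrc (RMS 0.06) and the integrin subunit Itga3 (RMS 0.07). Likeness over 3 groups of 2 samples describes these libraries only.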

How the data were processed

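RNA was sequenced from sorted cells in 6 samples. The authors deposited FPKM per gene and sample, and per the submitters' processing notes they used TopHat, Cufflinks and HTSeq with mm9, besides CASAVA 1.8.2 and FastQC, in an order and with settings not given in the sources used here. Read totals were likewise not given. Relative depth came from the values of single fragments in genes under 0.05 FPKM. In 1829 of 13080 tested genes (14.0%) all values were whole multiples within 0.01, and these gave the fragment counts. Values of members that were not whole multiples have no known count.

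Comparisons were made on log2(FPKM + 1) by limma 3.58.1 (R 4.3.3), with an intensity trend, all 6 samples in 1 model, two-sided tests and Benjamini-Hochberg adjustment over 13080 genes at 0.05. The code was tested on simulated data. Of the tested genes 12238 matched the RefSeq gene table. Named were all members, other ligands and ERBB4, and per role up to 3 pathway genes past the threshold with groups that did not overlap, plus the 2 genes most like each called member. Adam10, Adam17, Dusp6, Spry2, Fos and Egr1 were added after their values were seen, as were the motifs. Members and lists were chosen with earlier results of these data known. Figures used matplotlib 3.10.9 in Python 3.11.15.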

Additional observations from a re-analysis of the deposited data

How the results depend on the processing

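Counts of calls by limma are given over the members, the other pathway genes and all genes, beside 2, 8 and 1669 as deposited in CTX-treated minus untreated GFP+ (first comparison), 1, 1 and 248 in untreated GFP+ minus RFP+ (second) and 3, 6 and 2221 in CTX-treated GFP+ minus RFP+ (the third). Alternatives not mentioned moved a count by at most 1.5 times. In the first, members called were 1 with a pseudocount of 0.1 or 0.5, no filter, a filter at 5 FPKM, robust moderation or only the 4 samples compared. Pathway calls there were 4, 3, 0 and 5 with a pseudocount of 0.1, no filter, the 4 samples compared and the CTX pair averaged (an alternative chosen after seeing the data), and all calls 900.0, 2881, 753 and 485 with the filter at 5, quantile normalization, the 4 samples and the averaged pair. In the second, no filter gave 0, 0 and 3 calls (3056 genes at an unadjusted p under 0.05), the filter at 5 gave 130.0 in all, scaling 390.0, robust moderation 382, and the 4 samples 2 members. In the third, the filter at 5 gave 3 pathway and 1319 calls in all, scaling 17 and 4081, quantile normalization 18 and 4303, the 4 samples 5 members, 23 and 4955, and the averaged pair 608 in all.

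The replicate block, with the replicate number as a covariate, gave 6, 18 and 2999 calls in the first comparison. It gave 3, 3 and 959 in the second, and in the third 5, 19 and 3527. The samples share only a number, since no label pairs them. Over 13080 genes the replicate 2 minus 1 differences correlated at 0.30 between untreated GFP+ and RFP+, -0.11 between CTX-treated and untreated GFP+ and -0.04 between CTX-treated GFP+ and RFP+.

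Leaving out each sample in turn gave 1 to 6 members, 0 to 35 pathway genes and 550.0 to 5888 genes in the first comparison, 0 to 4, 0 to 24 and 0 to 4804 in the second, and 0 to 5, 0 to 23 and 253 to 4913 in the third. A group with 1 sample left is assumed to vary like the others. No called value changed sign. Of the others, Btc and Errfi1 in the second comparison were at 0.044 and 0.13 by median ratio and at 0.034 and 0.17 by quantiles. With samples left out in turn, the second comparison ranged from -1.60 to 0.51 for Areg, -1.19 to 0.60 for Hbegf, -0.46 to 0.29 for Btc and -0.76 to 0.51 for Errfi1. Hbegf ranged from -0.025 to 1.76 in the first and from -0.057 to 1.201 in the third, where Egfr ranged from -0.13 to 0.31. The cause was not tested.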
